A study of Homo sapiens with 36 samples.

Results

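The histone marks H3K4me3 and H3K27ac were compared with each other within B2B (BEAS-2B), an immortalised and non-cancerous human bronchial epithelial cell line. All H3K4me3 and H3K27ac peaks of B2B on chromosomes 1 to 22, X and Y were taken, which came to 66428 of the 476964 peaks in the 16 lists of the series. The H3K4me3 list held 26112 of them and the H3K27ac list 40316. Start sites and regions away from them were then sorted by whether they carried H3K4me3 only, H3K27ac only or both.

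Trimethylation of lysine 4 on histone H3 is deposited mainly by the SETD1 and MLL (KMT2) complexes, which are drawn to CpG-rich promoters, and it is a standard mark of transcription start sites. Acetylation of lysine 27 is deposited by the acetyltransferases p300 and CBP at active promoters and active enhancers, and it cannot coexist on the same lysine with the methylation placed by Polycomb. Promoters in use commonly carry both marks on the nucleosomes that flank the start, whereas distal enhancers usually carry acetylation with little H3K4me3.

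The series profiled A549, a lung adenocarcinoma line, and B2B by chromatin immunoprecipitation and sequencing (ChIP-seq), with 36 samples in 18 groups. The B2B groups used here are unperturbed cells immunoprecipitated for H3K4me3, H3K27ac, RNA polymerase II (pol II), the cohesin subunit Rad21, the insulator protein CTCF, the AP-1 subunits Jun, JunB and JunD, and the Mediator subunit Med1. The A549 H3K4me3 and H3K27ac groups served as the only outside comparison. Each group had 2 replicates, and the study pooled them ahead of peak calling, which leaves 1 list per target and no replicate error. All intervals below are 95% intervals that cover counting error only, and a difference is called where its interval excludes 0. The number of reads behind the lists was not stated. The median number of reads at a summit, solved from the deposited fold enrichment and p-value of each peak, was 107 for H3K4me3 and 62 for H3K27ac.

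The B2B cells are labelled as bronchial epithelial, and the marks were first read against cell type markers. Over all protein-coding genes, 58.9% carried both marks within 1 kb of a start site and 34.2% carried neither. Of 17 basal airway epithelial genes, 5 carried both marks and 10 neither, and the defining basal genes KRT5, KRT14 and TP63 were among those with neither. Of 15 simple epithelial genes, 6 carried both, among them KRT8, KRT18 and EPCAM, while KRT19 and GRHL2 carried neither. Mesenchymal and matrix genes carried both in 18 of 20 cases, with VIM, FN1 and ZEB1 among them. None of the 14 liver genes carried either mark, and 13 of 15 blood cell genes carried neither.

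The sequence at the start site of a leading gene of each class is shown with its CpG dinucleotides, which are bound, when unmethylated, by CXXC domain proteins of the H3K4 methyltransferase complexes. The genes were chosen by rank and are not typical of the CpG content of their classes. The windows run from 250 bp before to 50 bp after the RefSeq start (GRCh38.p14) in the direction of transcription, with each CpG in capitals. TTC1 (chr5:160008889-160009188, plus strand) is the gene with the highest H3K4me3 significance among genes with both marks, and its window held 17 CpG. GOLPH3L (chr1:150697105-150697404, minus strand) leads the genes with H3K4me3 only, with 8 CpG. S100A2 (chr1:153565795-153566094, minus strand) is the highest of the H3K27ac-only genes whose peak overlaps this window, with 5 CpG. The same window at all canonical starts held a median of 28 CpG with both marks, 16 with H3K4me3 only and 23 with H3K27ac only, and TTC1 and S100A2 lay below the lower quartiles of their classes, 21 and 9.
TTC1: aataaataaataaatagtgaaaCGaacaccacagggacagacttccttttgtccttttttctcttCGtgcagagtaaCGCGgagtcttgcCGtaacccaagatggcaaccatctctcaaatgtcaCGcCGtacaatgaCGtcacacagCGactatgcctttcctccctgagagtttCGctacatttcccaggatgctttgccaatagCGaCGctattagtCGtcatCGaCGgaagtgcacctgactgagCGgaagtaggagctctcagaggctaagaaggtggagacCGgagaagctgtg
GOLPH3L: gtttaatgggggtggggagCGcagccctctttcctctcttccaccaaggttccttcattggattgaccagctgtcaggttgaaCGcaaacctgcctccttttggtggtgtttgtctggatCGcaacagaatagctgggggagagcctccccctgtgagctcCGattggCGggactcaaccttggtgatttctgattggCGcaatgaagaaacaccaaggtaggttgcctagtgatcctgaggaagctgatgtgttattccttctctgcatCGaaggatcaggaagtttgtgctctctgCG
S100A2: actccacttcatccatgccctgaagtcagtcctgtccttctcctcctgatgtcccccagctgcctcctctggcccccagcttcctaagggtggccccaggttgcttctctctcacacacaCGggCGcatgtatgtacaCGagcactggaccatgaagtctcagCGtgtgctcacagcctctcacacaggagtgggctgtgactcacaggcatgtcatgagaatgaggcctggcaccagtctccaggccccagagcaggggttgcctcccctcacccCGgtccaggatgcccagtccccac

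Start sites were the 5′ ends of all GENCODE transcripts, and sites less than 1 kb apart were joined, which gave 100568 start-site groups. A group carried a mark if a peak had any base within 1 kb of any of its sites. Of the 18459 groups with at least 1 mark, 12910 carried both (69.9%, 69.3 to 70.6), 3820 carried H3K27ac only (20.7%, 20.1 to 21.3) and 1729 carried H3K4me3 only (9.37%, 8.95 to 9.80). Start sites with H3K4me3 were thus mostly acetylated. The groups with both marks also held more sites. They had a median of 4 start sites against 1 in the groups with either mark alone, and 32.7% of them had start sites on both strands against 8.91% with H3K4me3 only and 6.83% with H3K27ac only. A start site of a protein-coding gene was present in 90.5% of the groups with both, in 73.9% of those with H3K4me3 only and in 71.3% of those with H3K27ac only.

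Counted by gene, 11801 of 20033 protein-coding genes carried both marks (58.9%), 522 carried H3K4me3 only (2.61%), 860 carried H3K27ac only (4.29%) and 6850 carried neither (34.2%). A pol II peak lay at a start site of 49.2% of the genes. These are the shares against which the gene lists below are read.

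CpG content followed the classes across all genes. At the canonical start of each protein-coding gene, taken as 1 window per gene, the median ratio of observed to expected CpG was 0.874 where both marks were present, 0.657 with H3K4me3 only, 0.698 with H3K27ac only and 0.334 with neither. A ratio of at least 0.6 was found at 92.7% (92.2 to 93.1), 56.2% (51.9 to 60.3), 59.7% (56.2 to 63.2) and 30.6% (29.5 to 31.6) of these starts. Of the 13498 starts at or above that ratio, 77.6% carried both marks, 2.22% H3K4me3 only and 3.34% H3K27ac only. Of the 6535 starts below it, 12.7% carried both, 3.58% H3K4me3 only and 4.65% H3K27ac only. Most CpG-rich starts therefore carried the 2 marks together, and a single mark was less frequent above the ratio than below it.

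Where both marks were present their peaks mostly overlapped but differed in extent around the start. In 12733 of the 12910 start-site groups with both, the 2 peaks shared a base within 1 kb of a site. At the 11303 canonical starts with both, H3K27ac peaks covered 80.2% of the start positions themselves and reached 94.8% at 200 bp downstream, whereas H3K4me3 peaks covered 29.8% of the start positions and reached 90.5% at 300 bp downstream. H3K4me3 then extended further into the gene. At 1000 bp downstream it still covered 66.7% of the starts against 24.2% for H3K27ac, and at 1000 bp upstream 25.2% against 15.0%. Pol II and Rad21 peaks were centred on the start, where they covered 70.6% and 74.0% of the positions. At the 534 starts with H3K4me3 only, H3K4me3 reached 55.2% at 200 bp downstream, and pol II covered 17.8% and Rad21 32.0% of the start positions. At the 755 starts with H3K27ac only, H3K27ac reached 66.0% at 100 bp downstream, with pol II at 9.54% and Rad21 at 44.6%.

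**Figure D1:**
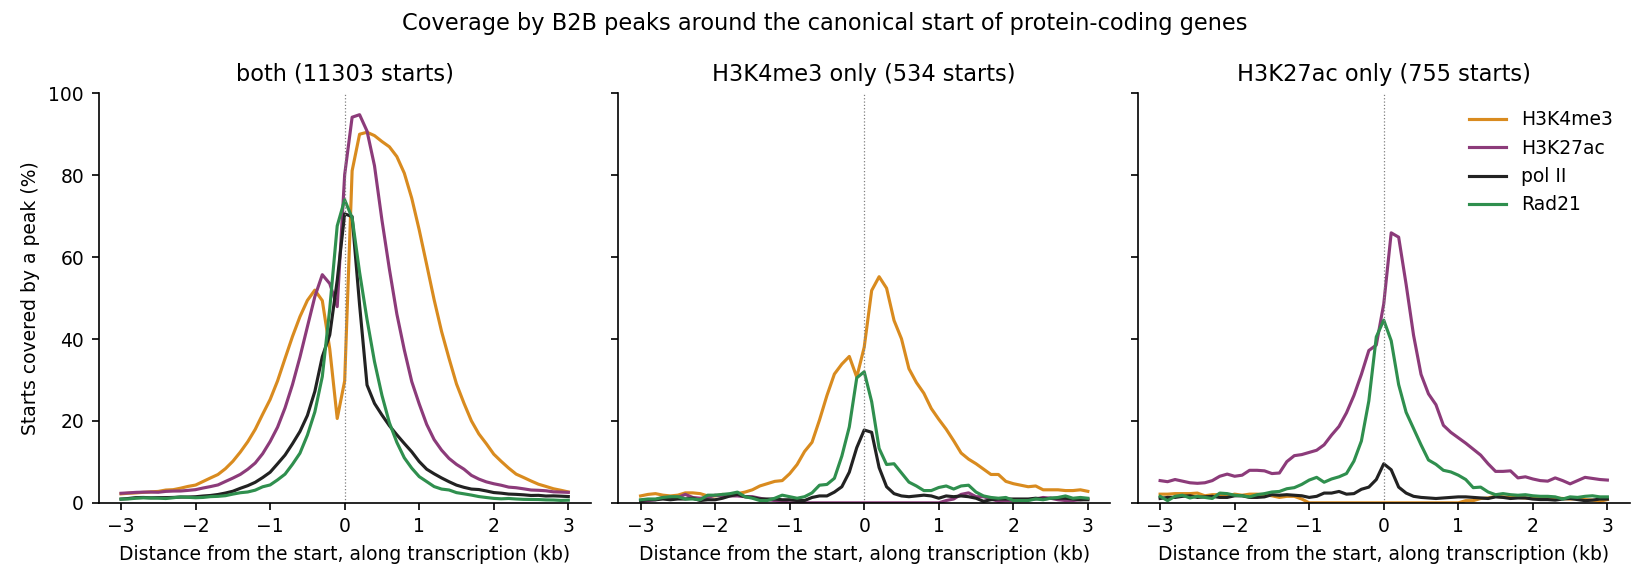
Share of canonical protein-coding starts (vertical axis, %) covered by a B2B peak of H3K4me3, H3K27ac, pol II or Rad21 at each distance from the start (horizontal axis, kb, positive along transcription), in 3 panels by class. With both marks, H3K4me3 spreads wider than H3K27ac and dips at the start, and pol II and Rad21 are centred on it.

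The machinery of transcription was concentrated where both marks met. A pol II peak was found at 74.8% of the start-site groups with both marks, at 25.2% of those with H3K4me3 only, at 19.3% of those with H3K27ac only and at 0.691% of those with neither. The difference between both and H3K4me3 only was 49.7 percentage points (47.4 to 51.8), and with 1 canonical start for each protein-coding gene, which removes the larger number of sites in groups with both, it was 58.7 points (55 to 62). Between H3K4me3 only and H3K27ac only it was 5.81 points (3.45 to 8.24), and this smaller difference became -1.38 points (-3.96 to 1.21) when both mark lists were cut to the same length. Med1, which belongs to the Mediator complex that bridges activators and pol II, was read on chromosomes 1 to 12, the part of the genome its list covers in full. Its peaks lay at 89.0% of the groups with both, at 38.8% of those with H3K27ac only and at 15.4% of those with H3K4me3 only. The differences from both were 50.3 points (48.1 to 52.4) for H3K27ac only, where that of pol II was 55.5 points (54.0 to 56.9), and 73.6 points (71.4 to 75.7) for H3K4me3 only. Between the single-mark classes, Med1 was thus nearer to H3K27ac, with a difference of -23.4 points (-26.2 to -20.4) for H3K4me3 only minus H3K27ac only.

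Rad21, a subunit of the cohesin ring, was present at 85.6% of the groups with both marks, 39.5% of those with H3K27ac only and 27.1% of those with H3K4me3 only. The difference between both and H3K4me3 only was 58.5 points (56.2 to 60.6), and it was 42.3 points (38.0 to 46.5) at canonical starts and 22.5 points (17.5 to 28.0) at those that were CpG-rich. CTCF, the zinc finger protein at which cohesin halts, varied less, with 40.8%, 33.2% and 29.8% in the same order and a difference of 11.04 points (8.68 to 13.3) between both and H3K4me3 only, which was 11.8 points (6.42 to 16.6) at CpG-rich canonical starts. Much of the cohesin at the start sites with both marks therefore lay apart from CTCF. Rad21 without CTCF was found at 50.3% of these groups, at 19.8% of those with H3K27ac only and at 13.2% of those with H3K4me3 only. CTCF without Rad21 had the opposite order, with 5.55%, 13.5% and 15.8%. Few CTCF peaks in any start-site class held the CTCF core motif within 50 bp of the summit, namely 3.20% with both, 7.30% with H3K27ac only and 6.15% with H3K4me3 only, against 10.6% of all B2B CTCF peaks.

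The Jun family ran against this order. Jun peaks lay at 14.5% of the groups with both marks, 18.6% of those with H3K4me3 only and 28.7% of those with H3K27ac only. JunB was found at 2.34%, 4.97% and 7.96%, and JunD at 1.12%, 4.68% and 4.48%. The Jun difference between both and H3K27ac only was -14.2 points (-15.8 to -12.7). The difference between both and H3K4me3 only was -4.12 points (-6.11 to -2.25), and it was not stable, since it became 3.18 points (0.827 to 4.85) within quartiles of H3K4me3 reads and 7.11 points (4.36 to 8.74) at CpG-rich canonical starts. The value within quartiles is a mean with equal weights, although most groups with H3K4me3 only lay in the lowest quartile. The order with H3K27ac only highest was that of groups with any Jun peak within 1 kb. At the canonical coding start position itself, Jun peaks covered 8.61% of the starts with H3K4me3 only, 2.86% with both and 2.52% with H3K27ac only. Among the Jun peaks themselves, the AP-1 motif (TGACTCA or its reverse complement TGAGTCA) lay within 50 bp of the summit in 47.1% of those at groups with H3K27ac only, 34.2% with H3K4me3 only and 33.5% with both, beside 39.8% of all 45047 Jun peaks. No peak of pol II, Rad21, CTCF or the Jun family was found at 41.5% of the groups with H3K4me3 only and 35.8% of those with H3K27ac only, against 3.97% of those with both.

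**Figure D2:**
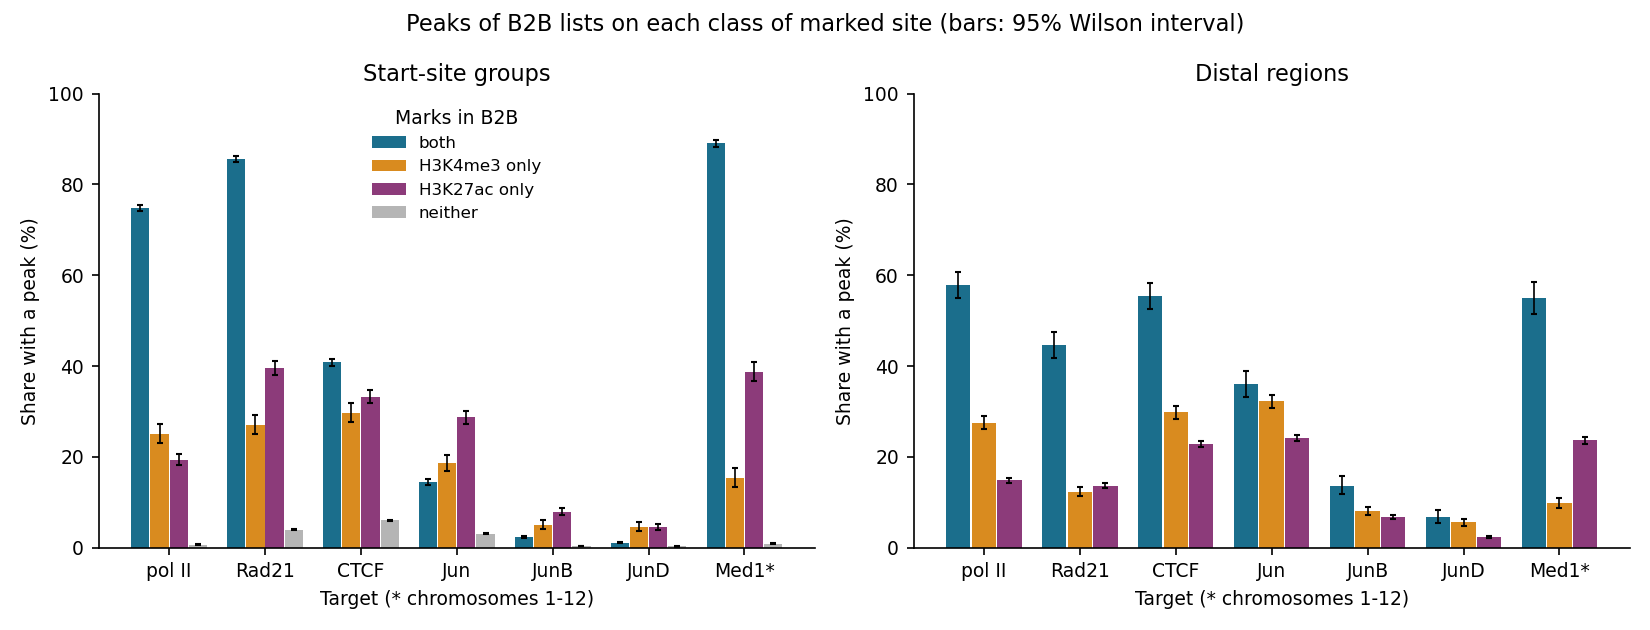
Share of start-site groups (left) and distal regions (right) of each class that hold a B2B peak of each target (vertical axis, %, with 95% Wilson intervals; Med1 on chromosomes 1 to 12). Pol II, Rad21 and Med1 are highest where both marks are present, while Jun at start-site groups is highest with H3K27ac only (28.7%). At the canonical start position itself, not drawn, Jun was highest with H3K4me3 only (8.61%).

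The level of the marks differed between the classes as well. These values come from the peaks that made the classes and are given as a description. At start-site groups with both marks, the H3K4me3 peak had a median of 137 reads at its summit and a median width of 1040 bp, compared with 60 reads and 580 bp with H3K4me3 only. The H3K27ac peak had a median of 198 reads with both and 60 reads with H3K27ac only. Fold enrichment, which divides the reads by a local background, gave the opposite order for H3K4me3, with medians of 3.39 with both and 4.31 with H3K4me3 only. The local background was 14.8 times the lowest of the list with both and 4.32 times with H3K4me3 only, so that the number of reads at the summit was used as the level of a mark.

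How the acetylated share followed the H3K4me3 level depended on the measure of that level. By reads, acetylation was less frequent at start sites with few H3K4me3 reads. Start-site groups with H3K4me3 were divided into quartiles of reads at the H3K4me3 summit. In the lowest quartile, with 12 to 99 reads, 66.5% of the groups were acetylated (64.9 to 68.0). In the next quartiles the share was 95.4% (94.6 to 96.0), 96.0% (95.3 to 96.6) and 94.7% (93.9 to 95.3). Pol II separated the classes at every level. With both marks it was found at 61.7%, 68.7%, 79.0% and 85.2% of the groups from the lowest to the highest quartile, and with H3K4me3 only at 25.9%, 25% (41 of 164), 19.6% and 24.8%. The highest quartile held 202 groups with H3K4me3 only. By fold enrichment in place of reads, the acetylated share ran the other way, with 92.1%, 91.4%, 85.7% and 83.6% from the lowest to the highest quartile. Pol II at groups with H3K4me3 only rose in that division, from 6.90% in the lowest quartile to 44.1% in the highest.

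**Figure D3:**
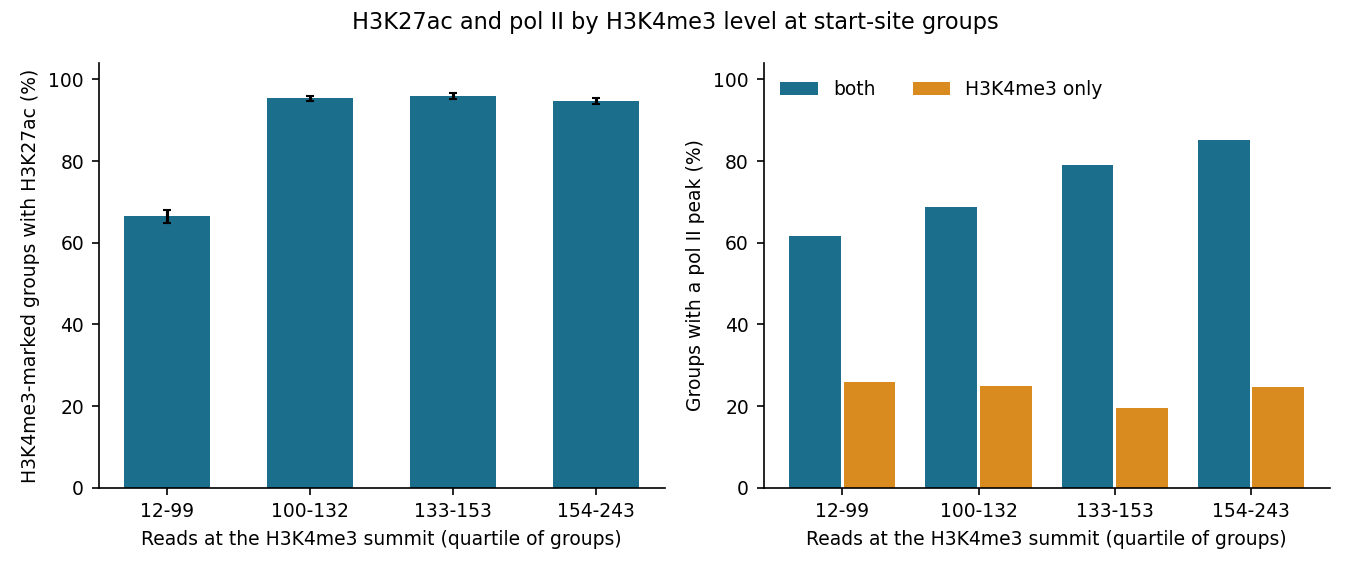
Start-site groups with H3K4me3, by quartile of reads at the H3K4me3 summit (horizontal axis). The left panel gives the share with H3K27ac (%, 95% Wilson intervals), 66.5% in the lowest quartile and at least 94.7% in the others, and the right panel the share with a pol II peak in groups with both marks and with H3K4me3 only. By quartile of fold enrichment, not drawn, the share with H3K27ac ran the other way.

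The genes at the head of each class are named by a fixed rule, the significance of the defining mark. Among genes with both marks, TTC1 and PFDN1, a prefoldin subunit, had the most significant H3K4me3 peaks, with 175 and 205 reads at the summit and H3K27ac peaks of 38 and 150 reads. DBF4B, a regulatory subunit of the CDC7 kinase, had 176 reads of H3K4me3 and 86 of H3K27ac. ORMDL2 and SARNP share a divergent promoter and 1 H3K4me3 peak of 191 reads, with an H3K27ac peak of 79 reads that does not overlap it. All 5 genes had a pol II peak and none had a Rad21 peak at a start site. Over all start-site groups with both marks, pol II lay at 74.8% and Rad21 at 85.6%.

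The leading genes with H3K4me3 only had between 109 and 149 reads at the summit, above the class median of 60. GOLPH3L, a Golgi phosphoprotein, had 149 reads in a peak at chr1:150696087-150697923, and BTN3A2, a butyrophilin, had 109 reads. ANXA1, the phospholipid-binding annexin A1, had 114 reads in a peak at chr9:73151541-73154884 that covered its start. COL5A2, a fibrillar collagen chain, had 114 reads at an internal start site, and MBNL2, a splicing regulator, had 110. All 5 had pol II and CTCF peaks and only COL5A2 had a Rad21 peak. Their fold enrichments lay between 22.7 for MBNL2 and 33.1 for ANXA1, well above the median of 4.31 for their class. Over all start-site groups with H3K4me3 only, pol II lay at 25.2%, CTCF at 29.8% and Rad21 at 27.1%.

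Of the leading genes with H3K27ac only, several carried the mark at an internal start site. C4orf51 had 330 reads of H3K27ac at chr4:145732486-145733827, around an internal start site of the gene, and PLEKHG4B, a guanine nucleotide exchange factor, had 260 reads at chr5:167550-168526, also inside the gene. S100A2, a calcium-binding protein of basal epithelium, had 249 reads in a peak at chr1:153564631-153567372 and was the only one of the 5 with peaks of Jun, JunB and JunD together. GNG3, a G protein gamma subunit, had 241 reads and no peak of any of the other targets. MFSD2B, a sphingosine-1-phosphate transporter, had 179 reads with Rad21 and Med1 peaks but no pol II peak.

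Ribosomal protein and histone genes carried both marks in nearly all cases. All 78 mitochondrial ribosomal protein genes, 79 of 81 cytosolic ribosomal protein genes and 64 of 69 replication-dependent histone genes had both, against 58.9% of all protein-coding genes. Of 508 zinc finger genes named ZNF, 430 carried both and 59 neither. Of 17 glycolytic enzyme genes, 16 carried both, with reads of H3K4me3 and H3K27ac of 170 and 211 at GAPDH, 174 and 297 at ENO1 and 106 and 73 at PGK1. ALDOC, the aldolase isoform of brain, carried neither mark, although a pol II peak lay at a start site.

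Genes that write and read the marks were themselves marked. All 16 genes of H3K4 methyltransferase complexes and demethylases and all 13 genes of H3K27 acetylation carried both. The methyltransferase KMT2A had 195 reads of H3K4me3 and 228 of H3K27ac, and the demethylase KDM5B had 172 and 318. The acetyltransferases EP300 and CREBBP had 166 and 140 reads of H3K4me3 with 355 and 331 of H3K27ac. Of 13 Polycomb genes, 12 carried both, among them EZH2, the H3K27 methyltransferase, with 150 and 283, and CBX2 carried neither.

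All 20 immediate early genes, which respond to stimuli within minutes and include the AP-1 subunits, carried both marks, and 18 of them had a pol II peak. JUN had 150 reads of H3K4me3 and 298 of H3K27ac, JUNB 136 and 265, JUND 149 and 307, FOS 171 and 313 and FOSL1 157 and 299. Jun peaks were found at the start sites of JUN, JUND, FOSB and FOSL2, the last with JunB as well, but not at those of JUNB, FOS or FOSL1. EGR2 and EGR3 were the 2 without pol II, with H3K4me3 at 102 and 57 reads. Inflammatory cytokine genes were mixed, with 7 of 16 carrying both, 2 H3K4me3 only, 1 H3K27ac only and 6 neither. IL6 had 65 reads of H3K4me3 and 121 of H3K27ac, with peaks of pol II and Jun. The IL1A start carried H3K4me3 only, with pol II and Jun peaks, at 12 reads, the lowest level among start-site groups with H3K4me3. TSLP also carried H3K4me3 only, at 46 reads, with neither a pol II nor a Jun peak. IL24 carried H3K27ac only, at 18 reads, with a Jun peak. CXCL8 and IL1B carried neither mark and yet had peaks of pol II and Jun.

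Single marks were found at several genes of epithelial, mesenchymal and lung identity. Of the mesenchymal and matrix genes, TAGLN, a smooth muscle actin-binding protein, and COL1A2 carried H3K27ac only, at 92 and 45 reads. Of the epithelial genes, CLDN4, a tight junction claudin, and ELF3, an epithelial ETS factor, carried H3K27ac only, at 70 and 80 reads, both with Jun peaks and without pol II. Among lung lineage and secretory genes, 13 of 18 carried neither. NKX2-1, the lung lineage factor, carried H3K4me3 only at 42 reads without pol II, FOXJ1, the factor of ciliated cells, carried H3K27ac only at 132 reads, and FOXA1 carried both at 134 and 258.

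Developmental regulators were for the most part without either mark, with 29 of 38 transcription factor genes and 22 of 39 HOX genes carrying neither. Of the HOX genes, 11 carried both marks. HOXC4, HOXC6, HOXC8 and HOXC9 were among them and had pol II, HOXC4 and HOXC6 through the same peaks. HOXA11 and HOXA13 carried H3K4me3 only, at 51 and 92 reads. HOXB9, HOXC5 and HOXC12 carried H3K27ac only. LHX9 was the developmental factor with H3K4me3 only, at 82 reads, and NKX2-5 the one with H3K27ac only, at 76 reads, both with Rad21 and without pol II. Of the markers of other lineages, KDR and ESAM of endothelium carried H3K4me3 only, at 23 and 70 reads, and GFAP and SYN1 of the nervous system carried H3K27ac only, at 92 and 63. None of the 12 neuronal genes and none of the 10 endothelial genes had a pol II peak. Olfactory receptor genes carried neither mark in 411 of 415 cases.

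**Figure D4:**
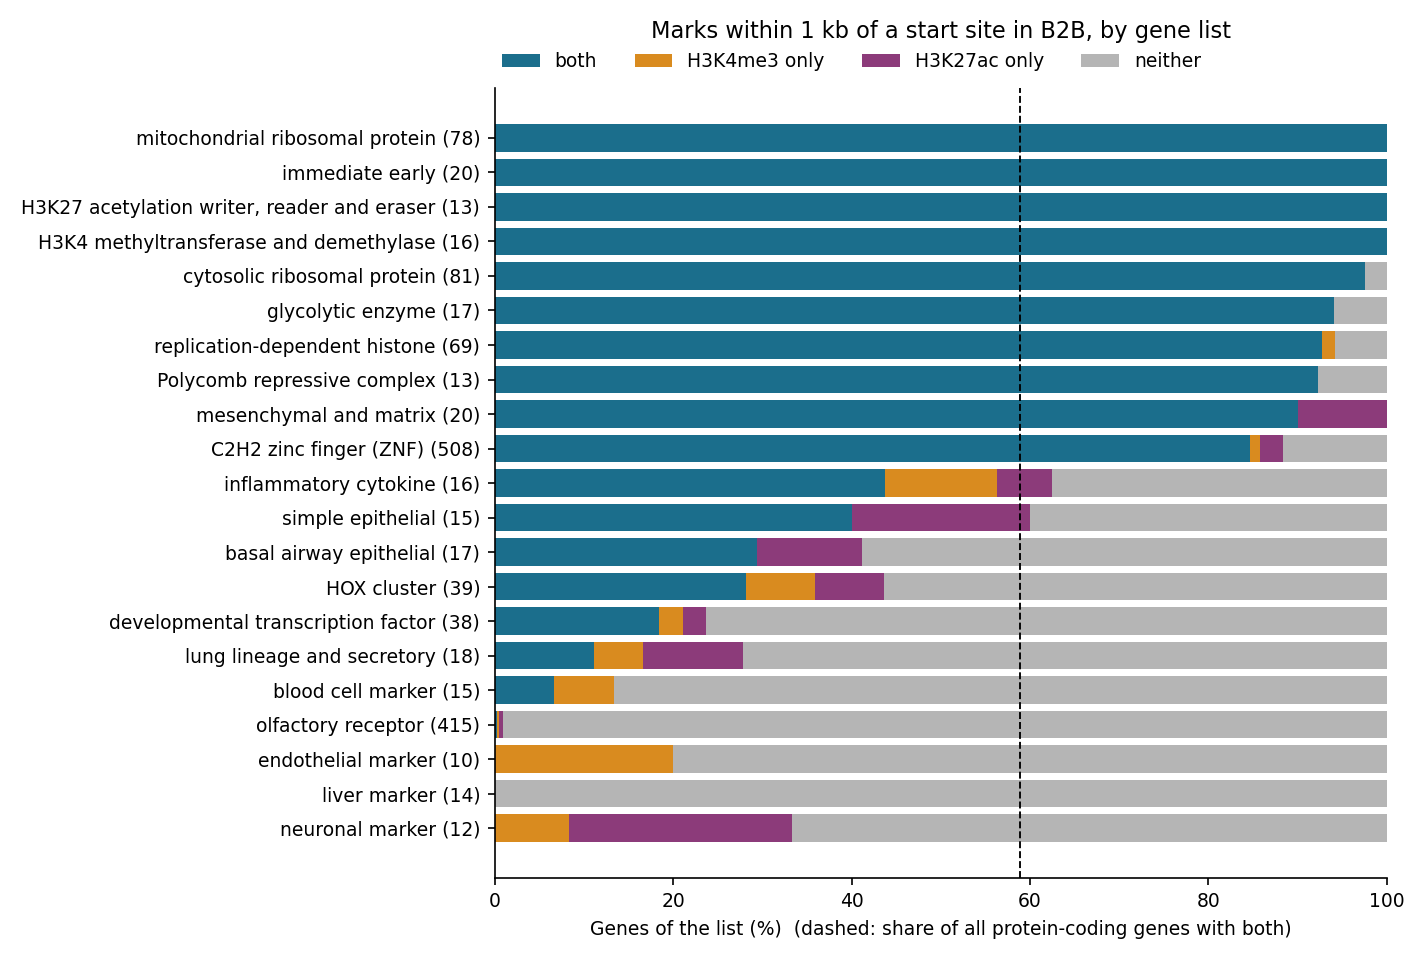
Share of genes (horizontal axis, %) in each of 21 lists (number of genes in parentheses) that carry both marks, H3K4me3 only, H3K27ac only or neither within 1 kb of a start site in B2B. The dashed line marks the 58.9% of all protein-coding genes that carry both.

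Away from start sites the balance was turned around. Regions with no base within 1 kb of a start site numbered 21506 after overlapping peaks were merged. Of these, 16551 carried H3K27ac only (77.0%, 76.4 to 77.5), 3817 carried H3K4me3 only (17.7%, 17.2 to 18.3) and 1138 carried both (5.29%, 5.00 to 5.60). With the H3K27ac list cut to the length of the H3K4me3 list, the counts were 7380 with H3K27ac only, 4113 with H3K4me3 only and 847 with both. By peak, 5039 of the H3K4me3 peaks and 17752 of the H3K27ac peaks were distal. The classes lay at similar distances from the nearest start site, with medians of 7.03 kb for both, 6.90 kb for H3K4me3 only and 6.65 kb for H3K27ac only. Inside an annotated gene lay 61.7%, 73.5% and 75.8% of them.

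The leading region of each single-mark distal class is shown by its summit with 50 bp to each side (hg38, plus strand, CpG in capitals), to show the regions that rank first. The H3K4me3-only region at chr6:28939646-28942330 is intergenic, 16.8 kb from the start of TRIM27, with 126 reads. The H3K27ac-only region at chr10:93437543-93438033 lies in an intron of MYOF, with 206 reads. Their G+C was 59.4% and 61.4%, so that the first is not typical of its class, whose median over 300 bp was 42.7%.
TRIM27 upstream: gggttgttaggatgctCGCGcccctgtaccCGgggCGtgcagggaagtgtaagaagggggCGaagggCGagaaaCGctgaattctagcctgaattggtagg
MYOF intron: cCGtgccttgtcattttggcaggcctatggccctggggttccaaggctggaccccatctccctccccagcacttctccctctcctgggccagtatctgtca

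The other regions named by rank were of the same kinds. The highest fold enrichment of H3K27ac among regions with both was found in an intron of PVT1, 74.6 kb from the start of MYC, with 202 reads of H3K27ac, 33 of H3K4me3 and a peak of each of the 7 targets. It was followed by a region over an exon of RAB11FIP1. Of the H3K4me3-only regions, 1 in an intron of ENPEP had 82 reads and 1 in an intron of ARMH4 had 109. Of the H3K27ac-only regions, 1 over an exon of UBE2H had 122 reads with Jun, JunB and JunD peaks, and 1 in an intron of PALM2AKAP2 had 106 reads with Jun.

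Distal regions with both marks held pol II, Mediator and cohesin most often. Pol II peaks lay in 57.9% of them, against 27.5% with H3K4me3 only and 14.8% with H3K27ac only, and the difference between both and H3K27ac only was 43.1 points (40.1 to 46.0). Med1 on chromosomes 1 to 12 was found in 55.0%, 9.87% and 23.7%, with a difference of 31.4 points (27.7 to 35.0) between both and H3K27ac only. Rad21 was found in 44.6%, 12.4% and 13.7%, and CTCF in 55.5%, 29.8% and 22.8%. Within bins of G+C, given below, the Rad21 difference between both and H3K4me3 only was far smaller and the order of the single-mark classes turned. None of pol II, Rad21, CTCF and the Jun family was found in 14.2% of the regions with both, 45.0% of those with H3K4me3 only and 61.3% of those with H3K27ac only. Regions with both were wider, with a median of 645 bp against 267 and 303 bp, and carried more reads of either mark, with medians of 52 against 21 for H3K4me3 and 59 against 35 for H3K27ac. In windows of 500 bp around the summit of every region the pol II and Med1 differences were 39.2 points (36.3 to 42.2) and 29.0 points (25.2 to 32.6).

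Between the single-mark classes, the targets divided. CTCF was more frequent with H3K4me3 only by 7.05 points (5.48 to 8.65) and pol II by 12.7 points (11.2 to 14.2), whereas Med1 was more frequent with H3K27ac only. Jun peaks were found in 36.0% of the regions with both, 32.2% of those with H3K4me3 only and 24.2% of those with H3K27ac only, which made H3K27ac only lower than H3K4me3 only by 8.03 points (difference -8.03, -9.67 to -6.43). Within 1 to 3 kb of a start site the order was the other way, with Jun in 15.4% of the regions with H3K4me3 only and 18.9% of those with H3K27ac only. With mark lists of equal length, which leaves 7380 stronger H3K27ac-only regions, Jun was found in 38.7% of these and in 32.4% of the H3K4me3-only regions, and the difference turned to 6.33 points (4.51 to 8.13). The CTCF difference turned as well, to -3.12 points (-4.90 to -1.32). Neither order therefore held at every list length. Pol II at this length was found in 28.9% of the regions with H3K4me3 only (27.5 to 30.3) and 25.9% of those with H3K27ac only (24.9 to 26.9), a far smaller gap.

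The distal classes differed in base composition. Over 300 bp around the summit, the median G+C was 58.0% with both marks, 42.7% with H3K4me3 only and 58.0% with H3K27ac only. Windows 2 kb to each side had medians of 45.7%, 41.0% and 49.7%, so that regions with H3K27ac stood above their surroundings by more than those with H3K4me3 only. The distal H3K27ac peaks of A549 had a median of 58.3%, and those of Jun, pol II and CTCF in B2B 42.0%, 45.7% and 47.0%. An observed to expected CpG ratio of at least 0.6 was found at 42.9% of the regions with both (40.04 to 45.8), 11.3% with H3K4me3 only (10.3 to 12.3) and 7.56% with H3K27ac only (7.17 to 7.98). Reads were not used here, and the part of library base composition in these values was not tested.

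Target shares moved with G+C. From 40 to 50% G+C, Jun was found in 71.1% of the regions with both, 39.4% with H3K4me3 only and 36.0% with H3K27ac only. From 50 to 60% the shares were 51.0%, 14.4% and 27.8%, and from 60% upward 11.4%, 4.32% and 17.2%. Averaged over these bins with equal weight, Jun was more frequent with H3K27ac only than with H3K4me3 only, by 7.66 points (5.29 to 9.51). This is opposite to the order over all regions, but the mean depends on the weights. The bin from 40 to 50%, with 1821 H3K4me3-only regions, kept the order over all regions, and the bin from 60% upward held 139. The 1310 H3K4me3-only regions under 40% were left out, since only 3 H3K27ac-only regions lay there. Pol II kept its contrast between both and H3K27ac only within the bins, with 81.8% against 31.0%, 67.4% against 17.2% and 41.9% against 9.28%. Between the single-mark classes the pol II order changed, with 33.3% for H3K4me3 only against 31.0% for H3K27ac only from 40 to 50% G+C, 14.4% against 17.2% from 50 to 60% and 18.7% against 9.28% above. Med1, on chromosomes 1 to 12, lay in 11.3% against 24.2% from 40 to 50% and 15.7% against 21.9% from 50 to 60%. From 60% upward its order turned, with 36.6% of 82 regions with H3K4me3 only against 26.6% with H3K27ac only. Rad21 lay in 15.7% of the regions with both, 9.45% with H3K4me3 only and 2.37% with H3K27ac only from 40 to 50%. From 50 to 60% its shares were 23.05%, 20.1% and 6.07%, and from 60% upward 74.6%, 70.5% and 26.4%. In each of these bins Rad21 was thus more frequent with H3K4me3 only than with H3K27ac only, opposite to the order over all regions.

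**Figure D5:**
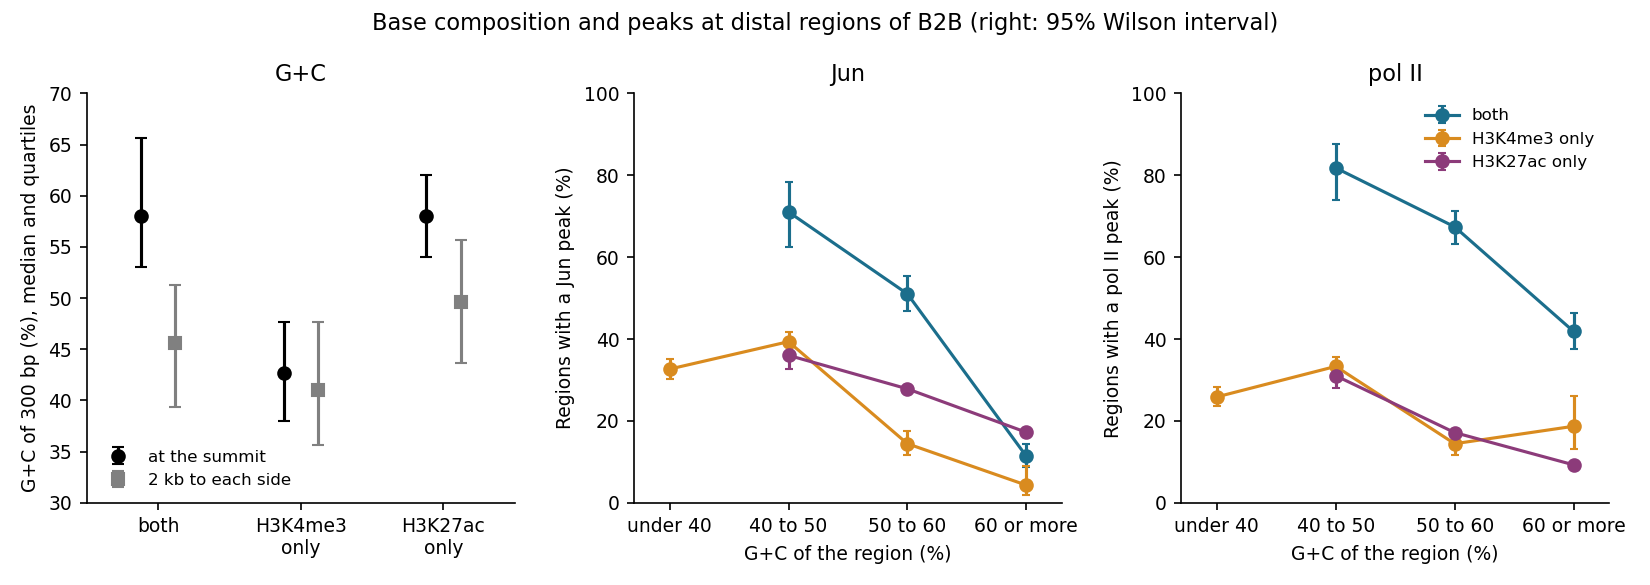
Left, G+C of 300 bp at the summit of distal regions and 2 kb to each side (vertical axis, %; median and quartiles) by class. Centre and right, share of distal regions with a Jun or pol II peak (%, 95% Wilson intervals) by G+C of the region, for bins with at least 20 regions, where regions with both marks lie highest for pol II in every bin that holds them and for Jun in those below 60% G+C.

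Few summits of the marks held the AP-1 motif. It lay within 50 bp of the summit in 0.879% of the regions with both (0.478 to 1.61), 1.91% with H3K4me3 only (1.52 to 2.398) and 1.46% with H3K27ac only (1.28 to 1.65), while equally wide windows at a distance of 2 kb held it in 1.41% (0.998 to 1.98), 1.15% (0.937 to 1.42) and 1.95% (1.81 to 2.10). Summits with H3K4me3 only thus held it more often than their flanks and summits with H3K27ac only less often, while the intervals overlapped for both marks. At the summits of the Jun peaks that overlapped these regions, the motif was present in 35.3%, 34.9% and 44.4%. The Jun peaks on H3K27ac-only regions thus held the motif more often, as at start sites, with intervals of 42.8 to 46.0 against 32.2 to 37.6 for H3K4me3 only.

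A549 was compared on chromosomes 1 to 12, which its H3K27ac list covers. Of the start-site groups with H3K4me3, 87.0% were acetylated in B2B and 87.5% in A549, a difference of -0.525 points (-1.43 to 0.368) that was not called. It was called at -1.19 points (-2.09 to -0.304) with lists of equal length and at -4.16 points (-5.00 to -3.32) in groups with H3K4me3 in both lines. In that last setting the same groups were scored in both lines, a pairing that the interval, made for independent shares, does not use. Of the groups with both marks in B2B, 95.9% also carried both in A549. Of those with H3K4me3 only in B2B, 41.7% carried H3K4me3 only in A549, 37.6% carried both and 20.3% carried neither. Of those with H3K27ac only in B2B, 35.1% carried both in A549, 23.2% H3K27ac only and 41.2% neither. A move from one single mark to the other was rare, at 4 of 1215 groups from H3K4me3 only to H3K27ac only and 13 of 2159 in the other direction. Among distal regions, 5.34% carried both marks in B2B (4.97 to 5.72) and 16.8% in A549 (16.3 to 17.3), with lists that were not cut to equal length. An A549 H3K4me3 peak overlapped 70.2% of the B2B distal regions with both and 48.6% of those with H3K4me3 only, and an A549 H3K27ac peak overlapped 37.7% of those with H3K27ac only.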

How the data were processed

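ChIP-seq peak lists in narrowPeak format were analysed, 9 for B2B and 2 for A549. Per the methods of the study and the submitters' processing notes, reads were aligned to hg38 with Bowtie2 2.4.4, duplicates were removed, 2 replicates were merged and scaled with SAMtools 1.13, and peaks were called with MACS2 2.2.7.1. Options and control were not given in the sources used here. The fold enrichment deposited by the authors is a ratio of the reads at the summit to a local background. For significance the deposited columns give a −log10 p-value and a −log10 q-value. Fold enrichment and p-value were solved for reads and background, since a fold enrichment falls where the background is high.

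Start sites came from GENCODE release 44 (252798 transcripts, 62663 genes). Peaks were intersected by 1 bp in Python 3.11.15 with NumPy 2.4.6 and pandas 2.3.3. Shares have Wilson intervals and differences Newcombe intervals, both at 95%. No test across samples was possible. On simulated data, 8 of 8 overlap counts equalled those of bedtools 2.31.1 and 94.6% of the Newcombe intervals held the known difference. Sequence was read from hg38 with pysam 0.24.0.

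Classes, gene lists and alternatives were chosen with earlier results of these data known. The text names, per start-site class, the 5 protein-coding genes with the highest −log10 p of the defining mark, per distal class the 3 regions with the highest fold enrichment, and members of lists of at most 40 genes. The distal sequences leave out chromosome 8, and a few items named by the rule are not reported here. A promoter was printed for the first named gene whose defining peak overlaps the window. The motifs were searched on both strands, AP-1 as TGACTCA or TGAGTCA and CTCF by its core of 12 positions. Alternatives were other thresholds, distances, list lengths, start sites and chromosomes. Med1 was used on chromosomes 1 to 12, past which its list is incomplete. The input libraries and the other A549 lists were not used here.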

Additional observations from a re-analysis of the deposited data

Results flagged for a closer look

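Both mark lists of B2B held peaks outside chromosomes 1 to 22, X and Y, which no comparison above used. On unplaced and alternative sequences lay 42 H3K4me3 peaks and 30 H3K27ac peaks. No expected number of peaks was computed for these sequences, so an excess was not tested. The input libraries were not analysed here, so the background at these sequences is not known.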

How the results depend on the processing

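No paired analysis was possible because the replicates were merged before peaks were called, and for the same reason no replicate could be left out. The 16 main results were recomputed in 127 alternatives, some of them (fixed windows, canonical starts, CpG-rich starts, G+C bins and H3K4me3 reads) chosen after seeing the data, and 112 kept their direction and their side of 0, or for counts stayed within 1.5 times. Some of the 112 repeat the main value. Med1 on chromosomes 1 to 12 is its main setting, and leaving out genome bins without a start site removed no distal region with H3K27ac. With mark lists of equal length, the Jun difference at distal regions (H3K27ac only minus H3K4me3 only) turned to 6.33 points, the CTCF difference (H3K4me3 only minus H3K27ac only) to -3.12 and the pol II difference at start sites (H3K4me3 only minus H3K27ac only) to -1.38, and H3K27ac-only counts fell to 2216 start-site groups and 7380 distal regions, since this cut removes H3K27ac peaks only. In the equally weighted mean of the G+C bins from 40% upward the distal Jun difference turned to 7.66. The Jun difference at start sites (both minus H3K4me3 only) was 7.11 at CpG-rich canonical starts, 3.18 within quartiles of H3K4me3 reads and -0.633, not called, within quartiles of H3K4me3 fold enrichment. Values within quartiles are means with equal weights, whatever the number of groups in each quartile. The causes of these turns were not tested. On chromosomes 1 to 12, the counts were 8106 groups with both, 2159 with H3K27ac only, 734 distal regions with both and 10177 with H3K27ac only, by the smaller number of chromosomes. The acetylated share in B2B minus A549 was called at -1.19 with lists of equal length and at -4.16 in groups with H3K4me3 in both lines. The pol II difference between both and H3K4me3 only lay between 47.0 and 69.4 points, that of Rad21 between 22.5 and 67.2 and that of CTCF between 4.90 and 20.5 over all alternatives. Without replicate error and read totals, differences of a few points cannot be weighed beyond counting error.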

Other observations

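Pol II and CTCF varied with distance from a start site in regions with H3K4me3 only. Pol II in regions with H3K4me3 only rose from 19.4% at 1 to 3 kb to 34.2% at 3 to 10 kb and stood at 30.1% from 10 to 50 kb, whereas in regions with H3K27ac only it was 14.4%, 14.5% and 15.2% over the same distances. CTCF in regions with H3K4me3 only was 16.4%, 35.1% and 38.4%, against 19.98%, 22.8% and 24.5% with H3K27ac only. Beyond 50 kb, 276 regions with H3K4me3 only (7.23% of the class) and 3.32% of those with H3K27ac only remained, with Jun in 37.7% and 35.0% of them.

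Long non-coding RNA genes without a coding neighbour made up 7.64% of the start-site groups with both marks, 17.8% of those with H3K4me3 only and 20.4% of those with H3K27ac only, beside 22.3% of the groups with neither.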
